A study of Caenorhabditis elegans with 10 samples.

Results

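Strains with a mutation at neighbouring steps of the methionine/S-adenosylmethionine (Met/SAM) cycle were compared: *mthf-1(ww50)*, with 2 libraries, and *metr-1(ww52)*, with 2 libraries. These 4 of the 10 RNA-seq libraries of the series were chosen by their genotype labels, and 14353 of the 46903 genes in the deposited table averaged 1 TPM or more in them and were tested. TPM, transcripts per 1000000, is a length-corrected share of the RNA. All strains carry the transgene *wwIs24[Pacdh-1::GFP;unc-119(+)]*, in which the promoter of the acyl-CoA dehydrogenase gene *acdh-1* drives GFP, and the deletion *nhr-10(tm4695)*. The strains are *mthf-1(ww50)* (VL1199), *metr-1(ww52)* (VL1201), *sams-1(ww51)* (VL1200), *mtrr-1(ww56)* (VL1205) and the parent with no further mutation (VL868). RNA came from whole animals, labelled L4 and described in the methods as late L4 or early young adult. Strains were maintained at 0.64 nM vitamin B12. Animals were arrested at L1 for 18 hours, then grown with 20 nM vitamin B12 on *E. coli* OP50 for 48 hours. Each mutant is 1 point-mutant line from an EMS screen, backcrossed to the parent, so the named allele and anything else that line carries cannot be told apart.

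The Met/SAM cycle turns homocysteine into methionine, activates methionine to S-adenosylmethionine (SAM), the methyl donor of most methyltransferases, and recovers homocysteine once the methyl group is spent. Methionine synthase, encoded by *metr-1*, makes this methionine with vitamin B12 as cofactor. It takes the methyl group from 5-methyltetrahydrofolate, which methylenetetrahydrofolate reductase, encoded by *mthf-1*, supplies from the folate cycle. The comparison therefore sets a lesion in the methyl supply against one in the enzyme that uses it, and asks whether the transcriptome tells them apart.

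The libraries of these strains were much alike. The log2 difference, *mthf-1(ww50)* minus *metr-1(ww52)* on the log2(TPM + 1) scale, had a median of 0.02 and an SD of 0.326 over all genes tested, and 796 genes differed by more than 1.5-fold. Between each mutant and the parent 2061 genes did so for *mthf-1(ww50)* and 2223 for *metr-1(ww52)*, 2 counts that share the parent libraries. Those counts compare means of 2 libraries, so they are not on the same footing as counts between single libraries. Between the single replicates of 1 strain the count was 2314 in *mthf-1(ww50)* and 1924 in *metr-1(ww52)*. Libraries of the same replicate number lay closer, with 861 genes past 1.5-fold between the strains in replicate 1 and 1198 in replicate 2. In 237 genes (1.65%) the strains did not overlap and *mthf-1(ww50)* was more than 1.5-fold higher, and in 226 (1.57%) it was more than 1.5-fold lower. Replicates correlated across genes at 0.951 in *mthf-1(ww50)* and 0.958 in *metr-1(ww52)*. Each of the 4 libraries had 14079 to 14284 genes at 1 TPM or more.

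Transcript levels do not check the strain labels, because the mutants overlap for both mutated genes and both lie above the parent. Transcripts of *mthf-1* were at 420 and 336 TPM in *mthf-1(ww50)* and at 444 and 331 TPM in *metr-1(ww52)*, against 90.4 and 73.0 TPM in the parent. Those of *metr-1* were at 242 and 192 TPM in *mthf-1(ww50)* and at 242 and 187 TPM in *metr-1(ww52)*, against 24.5 and 22.8 TPM in the parent. The reporter's own gene *acdh-1* was at 477 and 443 TPM in *mthf-1(ww50)* and at 378 and 301 TPM in *metr-1(ww52)*, against 0.05 and 0.18 TPM in the parent. Both *mthf-1(ww50)* values lie above both *metr-1(ww52)* values, but the difference of 0.45 had a 95% interval of -1.22 to 2.11. The spread behind that interval was estimated over all 10 libraries, among them those of *sams-1(ww51)* at 126 and 20.9 TPM. The deleted *nhr-10*, a nuclear hormone receptor gene, was still listed at 3.19 and 4.44 TPM in *mthf-1(ww50)* and at 3.58 and 3.60 TPM in *metr-1(ww52)*.

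No gene of the Met/SAM cycle or the folate cycle passed the test in either direction. The test was limma over all 10 libraries with Benjamini-Hochberg adjustment over the 14353 genes, and a call needed an adjusted p under 0.01 and a fold change over 1.5. Of all genes tested, 3 (0.0209%) were called higher and 2 (0.0139%) lower in *mthf-1(ww50)* than in *metr-1(ww52)*. The 7 Met/SAM genes tested had a median difference of 0.18, against 0.02 for all genes, and none reached an unadjusted p of 0.05. Without *mthf-1(ww50)* replicate 1 their median was 0.026, against 0.062 for all genes, and without *metr-1(ww52)* replicate 2 it was 0.098. The SAM synthetase gene *sams-1* was at 326 and 331 TPM in *mthf-1(ww50)* and at 362 and 299.9 TPM in *metr-1(ww52)*. Its paralog *sams-5* was at 71.1 and 77.3 TPM in *mthf-1(ww50)* and at 61.0 and 58.8 TPM in *metr-1(ww52)*, without overlap. S-adenosylhomocysteine hydrolase, encoded by *ahcy-1*, was at 2296 and 2265 TPM in *mthf-1(ww50)* and at 2088 and 1899 TPM in *metr-1(ww52)*, again without overlap. The methionine synthase reductase gene *mtrr-1* was at 170.5 and 148 TPM in *mthf-1(ww50)* and at 148 and 142 TPM in *metr-1(ww52)*. The data do not show that these levels are equal: the interval for *ahcy-1* ran from -0.27 to 0.66 and that for *sams-1* from -1.25 to 1.24.

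Of 16 folate one-carbon genes, 15 were matched and tested, and their median difference was 0.01. The serine hydroxymethyltransferase gene *mel-32* was at 593 and 515 TPM in *mthf-1(ww50)* and at 518 and 468 TPM in *metr-1(ww52)*. Thymidylate synthase, encoded by *tyms-1*, was at 24.7 and 28.2 TPM in *mthf-1(ww50)* and at 22.4 and 21.4 TPM in *metr-1(ww52)*. The member with the largest difference was *folt-2*, a gene of the folate transporter family, at 15.04 and 20.3 TPM in *mthf-1(ww50)* and at 8.51 and 7.15 TPM in *metr-1(ww52)*. The strains do not overlap for *folt-2*, yet its difference of 1.07 had an interval of -0.28 to 2.42. That interval also uses the spread of all 10 libraries, with 29.7 and 9.22 TPM in *sams-1(ww51)* and 25 and 9.51 TPM in *mtrr-1(ww56)*.

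**Figure D1:**
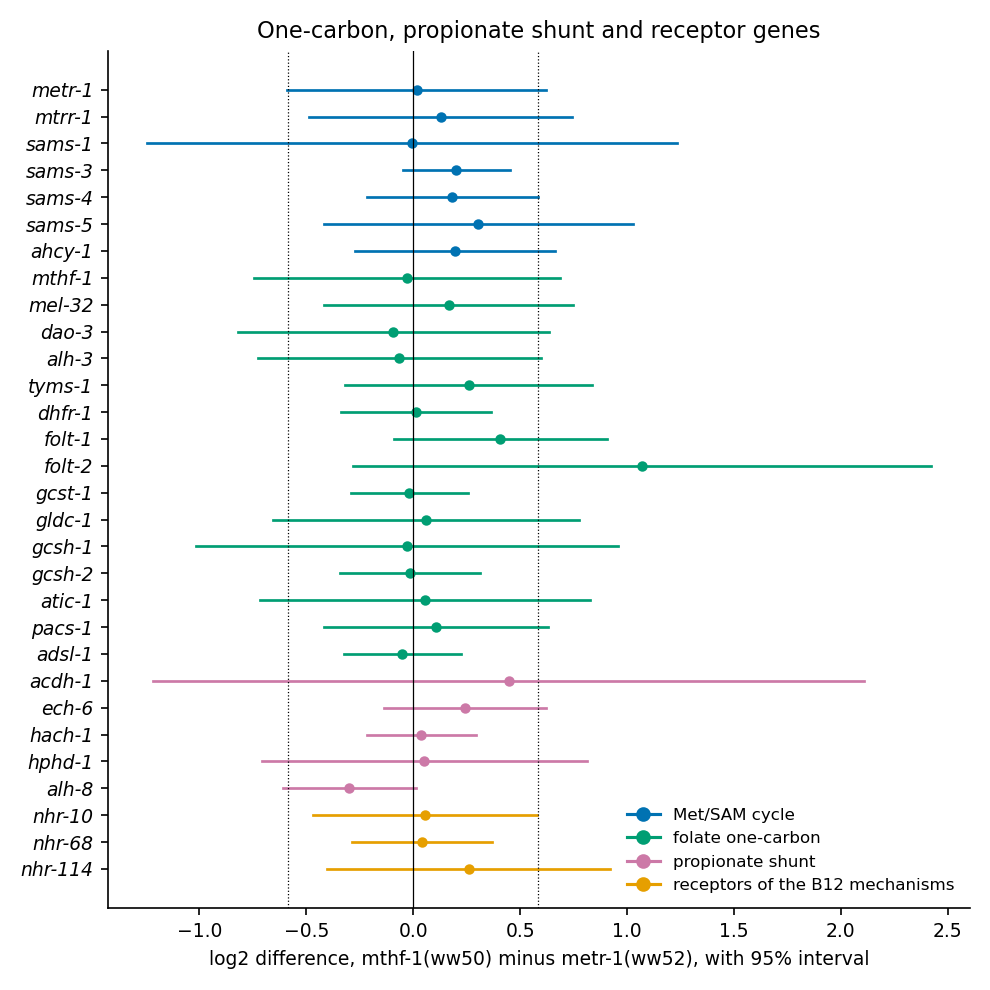
Log2 difference of each Met/SAM cycle, folate, propionate shunt and receptor gene, *mthf-1(ww50)* minus *metr-1(ww52)*, with its 95% interval from limma (n = 2 libraries each, spread estimated over 10). Dotted lines mark a 1.5-fold change. All intervals include 0, and *folt-2* and *acdh-1* have the widest reach to the right.

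The propionate shunt breaks down propionate without vitamin B12, and *acdh-1* encodes its first enzyme. None of its 5 genes was called. The hydratase gene *ech-6* was at 269.99 and 219.5 TPM in *mthf-1(ww50)* and at 218 and 193 TPM in *metr-1(ww52)*. The last gene of the shunt, *alh-8*, was at 256 and 233 TPM in *mthf-1(ww50)* and at 297 and 303 TPM in *metr-1(ww52)*, the only member with both *mthf-1(ww50)* values below both of *metr-1(ww52)*. The receptor gene *nhr-114* was at 97.2 and 103.5 TPM in *mthf-1(ww50)* and at 88.3 and 79.3 TPM in *metr-1(ww52)*, and *nhr-68* was at 76.2 and 83.4 TPM in *mthf-1(ww50)* and at 70.02 and 85.7 TPM in *metr-1(ww52)*. The 10 genes of vitamin B12 handling and canonical propionate breakdown had a median difference of 0.02 with no call.

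Of the 5 called genes, 2 lie in chromosomal stretches described further on and 3 do not. Outside the stretches, the only protein-coding gene called higher in *mthf-1(ww50)* was *zer-1* (chromosome III, WBcel235 881443 to 886793), which encodes a substrate receptor of a cullin ubiquitin ligase. It was at 59.9 and 59.8 TPM in *mthf-1(ww50)* and at 16.9 and 15.1 TPM in *metr-1(ww52)*, a log2 difference of 1.84 with an SE of 0.13 (limma adjusted p = 0.00832). The parent had 43.4 and 47.6 TPM and the other mutants had 53.4 to 66.3 TPM, so the *metr-1(ww52)* libraries are the low ones of the 10. The end of *zer-1* overlaps *ucr-2.3* on the other strand, which was at 73.8 and 98.6 TPM in *mthf-1(ww50)* and at 85.1 and 84.1 TPM in *metr-1(ww52)*. Leaving out any 1 of the 10 libraries moved the adjusted p of *zer-1* to between 0.0137 and 0.0414, past the cutoff, while its difference stayed between 1.76 and 1.91.

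The antisense RNA *anr-19* (chromosome I, 1916942 to 1917064, 123 bases of exon) was at 32.7 and 22.5 TPM in *mthf-1(ww50)* and was listed at 0 in both *metr-1(ww52)* libraries and in the other 6 (adjusted p = 0.000432). It lies inside *trpp-10* on the opposite strand, a gene at 6.15 and 6.61 TPM in *mthf-1(ww50)* and at 7.51 and 7.33 TPM in *metr-1(ww52)*. The methods name no strand setting, so reads of this pair cannot be assigned with certainty. The noncoding RNA R13A1.14 (chromosome IV, 148 bases), whose exon overlaps R13A1.13, showed the mirror pattern. It was listed at 0 in both *mthf-1(ww50)* libraries and was at 4.25 and 5.23 TPM in *metr-1(ww52)*, with 0 in the other 6 (adjusted p = 0.00832). Without either parent library, either *sams-1(ww51)* library or either *mtrr-1(ww56)* library its adjusted p lay between 0.0170 and 0.0414, past the cutoff. No fold change is given for these RNAs, since 1 strain is listed at 0. Each RNA is listed at 0 in both libraries of every strain but 1, so its estimated spread rests mostly on zeros. Each also passed the filter on mean TPM through that strain alone. With the 4 libraries alone the limma adjusted p was 0.102 for *anr-19* and 0.164 for R13A1.14.

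With the replicate number as a block, all 5 genes were called again, and the counts were 3 higher (0.0209%) and 8 lower (0.0557%). The 6 added genes were *lys-10*, *cey-1*, *sdhd-1*, F40F8.4, *rpl-36.A* and *rps-9*, of which all but *lys-10* lie in the chromosome II stretch. The lysozyme gene *lys-10*, on chromosome IV, was at 0.73 and 1.96 TPM in *mthf-1(ww50)* and at 20.5 and 22.99 TPM in *metr-1(ww52)*, a difference of -3.33 with an SE of 0.29 (limma adjusted p = 0.0123, and 0.00472 with the block). The other 6 libraries were between 0.23 and 2.48 TPM, so *metr-1(ww52)* alone stands high.

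**Figure D2:**
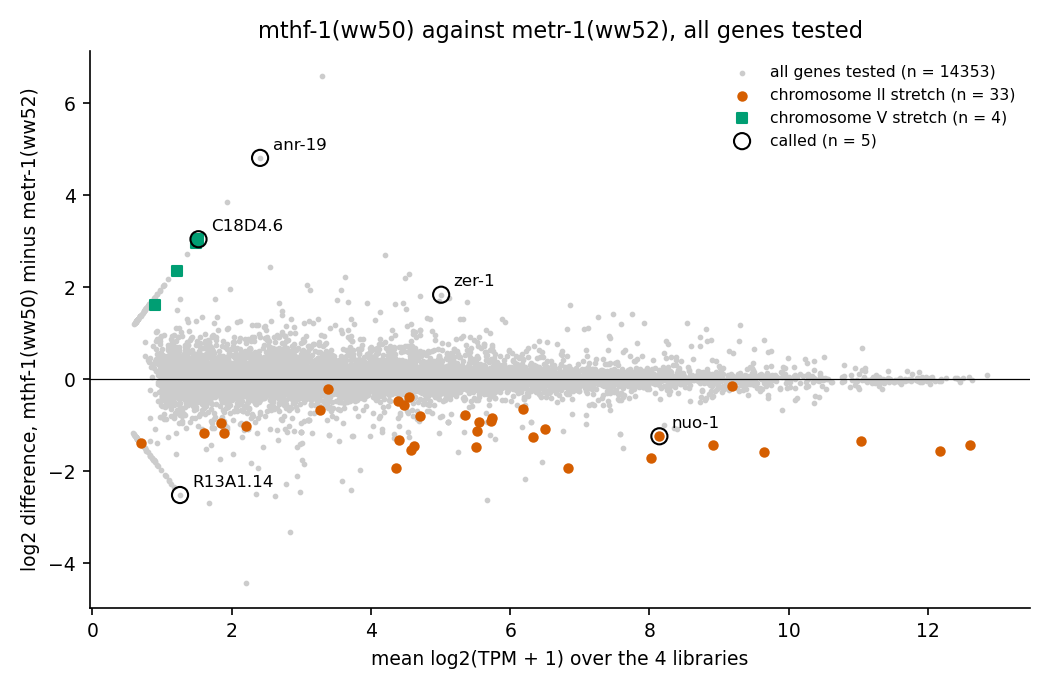
Log2 difference, *mthf-1(ww50)* minus *metr-1(ww52)*, against the mean log2(TPM + 1) of the 4 libraries for 14353 genes. Most points lie near 0 (SD 0.326), the 33 genes of the chromosome II stretch all lie below it, and circles mark the 5 called genes. The slanting lines of points at the left are genes listed at 0 in both libraries of 1 strain.

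The largest group of neighbouring genes that set the strains apart was on chromosome II. It was found by sliding a window of 11 tested genes along each chromosome and keeping those with a median difference beyond 0.5 in size, which 66 of 14269 windows were, in 5 stretches. The longest runs from *ptp-3* to *pqm-1* (chromosome II, 10975539 to 11152595, 177 kb) and holds 33 tested genes. All 33 had lower means in *mthf-1(ww50)* than in *metr-1(ww52)*, with a median difference of -1.16. In terms of mean TPM, *metr-1(ww52)* was a median 2.45 times as high, with quartiles of 1.77 and 2.89. In 30 of the 33 genes the strains do not overlap, and in 27 they also differ by more than 1.5-fold, as 226 (1.57%) of all genes did in this direction. At an adjusted p under 0.05 and a fold over 1.5, 4 genes (0.0279%) were higher and 13 (0.0906%) lower in *mthf-1(ww50)*, and 10 of these 17 lie here. The stretch was picked from these same values, so its counts describe it and test nothing.

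The gene *nuo-1*, for the NADH-binding subunit of respiratory complex I, was called lower in *mthf-1(ww50)*, at 185 and 181 TPM, against 438 and 428 TPM in *metr-1(ww52)* (difference -1.24, SE 0.09, limma adjusted p = 0.00902). Exons of *nuo-1* overlap C09H10.4, so reads may be split between them. The other 6 libraries were between 189 and 205 TPM for *nuo-1*. Leaving out any 1 of the 10 libraries moved its adjusted p to between 0.0137 and 0.0461, past the cutoff, with the difference between -1.26 and -1.22. The complex II subunit gene *sdhd-1* was at 309.8 and 279 TPM in *mthf-1(ww50)* and at 807 and 771 TPM in *metr-1(ww52)* (adjusted p = 0.0111, and 0.00472 with the block). Neither respiratory gene overlaps between the strains.

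The stretch holds 3 ribosomal protein genes. The least abundant, *rpl-42*, was at 7.89 and 5.57 TPM in *mthf-1(ww50)* and at 12.53 and 9.79 TPM in *metr-1(ww52)*. Transcripts of *rps-9* were at 2806 and 2597 TPM in *mthf-1(ww50)* and at 8125 and 7683 TPM in *metr-1(ww52)*. Those of *rpl-36.A* were at 3937 and 3631 TPM in *mthf-1(ww50)* and at 10449 and 10062 TPM in *metr-1(ww52)*, where it was the most abundant transcript of both libraries. Across the 78 cytosolic ribosomal protein genes tested, the median difference was -0.01 and *rps-9* and *rpl-36.A* were the only ones with an unadjusted p under 0.05 and lower values. The adjusted p was 0.0111 for *rps-9* and 0.0131 for *rpl-36.A*, and 0.00472 for both with the block.

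Other members act in regulation or in neurons. The Y-box RNA-binding protein gene *cey-1* was at 487 and 437 TPM in *mthf-1(ww50)* and at 1431 and 1342 TPM in *metr-1(ww52)*. It shares exon sequence with *srlf-15*, so reads may be split between them. The neuron navigator gene *unc-53* was at 12.8 and 13.04 TPM in *mthf-1(ww50)* and at 41.3 and 37.6 TPM in *metr-1(ww52)*. The receptor tyrosine phosphatase gene *ptp-3*, at the left end, was at 13.02 and 11.8 TPM in *mthf-1(ww50)* and at 36.04 and 28.8 TPM in *metr-1(ww52)*. The transcription factor gene *pqm-1*, at the right end, was at 66.7 and 56.0 TPM in *mthf-1(ww50)* and at 148 and 116 TPM in *metr-1(ww52)*. None of these genes overlaps between the strains.

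**Figure D3:**
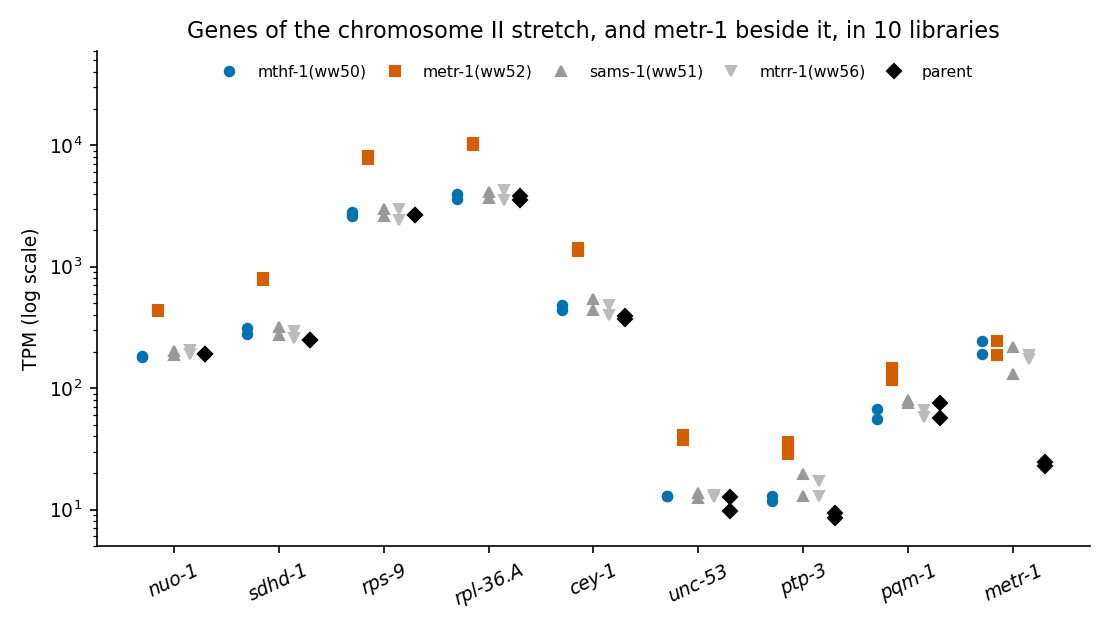
TPM on a log axis in each of the 10 libraries for 8 genes of the chromosome II stretch and for *metr-1* beside it; each marker is 1 library. In the 8 genes both *metr-1(ww52)* libraries lie above the other 8, whereas for *metr-1* the *mthf-1(ww50)* and *metr-1(ww52)* libraries cover the same range, 187 to 242 TPM.

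The size of the difference varied within the stretch. The ratio of mean TPM, *metr-1(ww52)* over *mthf-1(ww50)*, ran from 1.18 for C09H10.9 to 4.01 for *srlf-15*. C09H10.9 was at 9.67 and 7.85 TPM in *mthf-1(ww50)* and at 11.8 and 8.80 TPM in *metr-1(ww52)*, with overlap. The collagen gene *col-81* also overlapped, at 216.5 and 1403 TPM in *mthf-1(ww50)* and at 168 and 2187 TPM in *metr-1(ww52)*, a gap between replicates far larger than that between strains. The third member with overlap, the noncoding RNA C09H10.16, was listed at 0 in 3 of the 4 libraries and at 5.78 TPM in *metr-1(ww52)* replicate 2. The genes lie on both strands, 15 on the plus and 18 on the minus strand.

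The *metr-1(ww52)* libraries also stood apart from the strains outside the comparison. Both lay above all 8 other libraries in 30 of the 33 genes, which held for 296 (2.06%) of all genes tested. Relative to the parent the median log2 difference of the stretch was 0.16 in *mthf-1(ww50)* and 1.17 in *metr-1(ww52)*, against medians of 0.12 and 0.10 for all genes, and these values share the libraries already described. The stretch begins 44.5 kb past the end of *metr-1* (chromosome II, 10926561 to 10931078). The 10 tested genes on either side had median differences of -0.0022 and -0.025, with single genes between -0.31 and 0.64. The number of copies of this region in each strain was not tested.

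**Figure D4:**
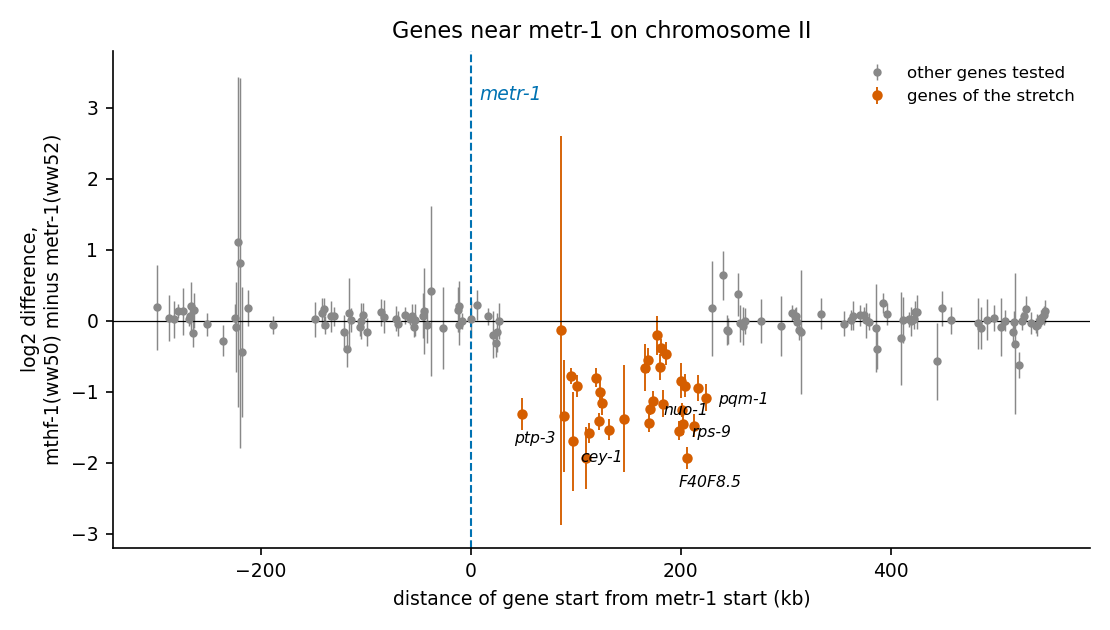
Log2 difference, *mthf-1(ww50)* minus *metr-1(ww52)*, of each tested gene against the distance in kb of its start from that of *metr-1* (dashed line), with its SE. The 33 genes of the stretch, in orange, lie between -1.94 and -0.14, and the 10 genes next to it on either side lie between -0.31 and 0.64.

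A second region set *metr-1(ww52)* apart in the other direction. The uncharacterised gene C18D4.6 on chromosome V, called higher in *mthf-1(ww50)*, was at 7.31 and 7.21 TPM there and listed at 0 in both *metr-1(ww52)* libraries, while the other 6 had 3.91 to 4.90 TPM (limma adjusted p = 0.000432). Around it, from Y20C6A.1 to C38D9.2 (chromosome V, 17371514 to 17571742, 200.2 kb, 79 annotated genes), 11 genes averaged 0.5 TPM or more in the other 8 libraries. In all 11 both *metr-1(ww52)* libraries were below the other 8, as in 335 (2.14%) of the 15639 genes at that level, and 7 of the 11 were listed at 0 in both. Summed over the 79 genes, the region had 35.1 and 24.9 TPM in *mthf-1(ww50)* and 1.02 and 0.71 TPM in *metr-1(ww52)*, against 22.5 to 29.7 TPM in the other 6. Its limits were set from these values, so this too is a description.

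Only 4 of the 11, C18D4.6 among them, averaged 1 TPM over the 4 compared libraries and were tested. They passed that filter through their *mthf-1(ww50)* values alone, so their adjusted p-values are not independent support for the difference. With the 4 libraries alone the limma adjusted p of C18D4.6 was 0.102. The lincRNA *linc-14* was at 9.27 and 4.95 TPM in *mthf-1(ww50)* and listed at 0 in both *metr-1(ww52)* libraries (adjusted p = 0.0555). C38D9.2 was at 5.40 and 3.34 TPM in *mthf-1(ww50)* and at 0.05 and 0 TPM in *metr-1(ww52)*, and Y20C6A.1 was at 2.78 and 1.83 TPM in *mthf-1(ww50)* and at 0.07 and 0.06 TPM in *metr-1(ww52)*. Both missed the cutoff. The F-box genes *fbxb-7* and *fbxa-176* and the SCP-like gene *scl-24* belong to the untested 7. In the whole table these 4 genes were the only ones at 0.1 TPM or less in both *metr-1(ww52)* libraries and at 1 TPM or more in the other 8. The same count was 0 for *mthf-1(ww50)*, 0 for *sams-1(ww51)*, 1 for *mtrr-1(ww56)* and 2 for the parent. Whether this region is present in the *metr-1(ww52)* genome was not tested.

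**Figure D5:**
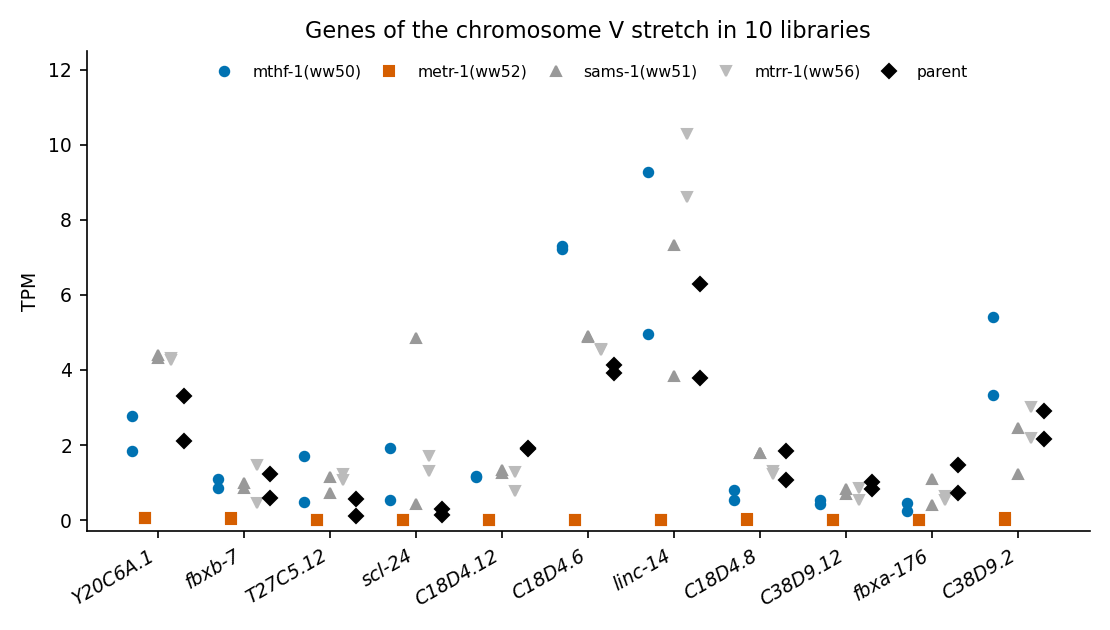
TPM of 11 genes of the chromosome V stretch in the 10 libraries, in chromosomal order; each marker is 1 library. The *metr-1(ww52)* libraries lie at 0 to 0.07 TPM for every gene, below the other 8 libraries, among which C18D4.6 and *linc-14* are the highest.

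Outside these stretches few genes stood clear of replicate spread. The remaining genes at an adjusted p under 0.05 were *acr-17* and H28G03.5. The acetylcholine receptor subunit gene *acr-17* was at 3.8 and 2.98 TPM in *mthf-1(ww50)* and at 0.33 and 0.27 TPM in *metr-1(ww52)* (adjusted p = 0.0402), against 0.14 and 0.13 TPM in the parent. H28G03.5 was at 7.4 and 8.17 TPM in *mthf-1(ww50)* and at 19.8 and 19.2 TPM in *metr-1(ww52)* (adjusted p = 0.0287).

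Further genes had large differences that were not called. The aspartyl protease gene *asp-12* was at 45.2 and 57.1 TPM in *mthf-1(ww50)* and at 13.3 and 6.90 TPM in *metr-1(ww52)*, a difference of 2.29 (SE 0.29, adjusted p = 0.0555). The SCP-like gene *scl-2* was at 24.2 and 15.7 TPM in *mthf-1(ww50)* and at 107 and 146 TPM in *metr-1(ww52)*, a difference of -2.62 (SE 0.34, adjusted p = 0.0642). The invertebrate lysozyme gene *ilys-2* was at 1.5 and 1.61 TPM in *mthf-1(ww50)* and at 11.7 and 16.23 TPM in *metr-1(ww52)*. None of these overlaps between the strains. The gene *gldi-2* was at 41.6 and 54.8 TPM in *mthf-1(ww50)* and at 11.5 and 14.4 TPM in *metr-1(ww52)*, with 31.6 to 55.6 TPM in the other 6 libraries, so it resembles *zer-1* in that *metr-1(ww52)* is the low strain. The collagen gene *col-176* was at 14.3 and 11.2 TPM in *mthf-1(ww50)* and at 1.28 and 1.79 TPM in *metr-1(ww52)*, but its level in the other mutants ran from 25.8 to 149 TPM. The P-glycoprotein transporter gene *pgp-1* was at 21.5 and 18.0 TPM in *mthf-1(ww50)* and at 8.36 and 6.35 TPM in *metr-1(ww52)*.

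The listed genes of the response to infection leaned towards *mthf-1(ww50)* without a call. Of 24 tested, 20 had a positive difference, with a median of 0.56 against 0.02 for all genes. Without *metr-1(ww52)* replicate 2 the median was 0.26, without its replicate 1 it was 0.76, and with a pseudocount of 5 it was 0.37. At an unadjusted p of 0.05, 6 were past the mark with higher and 1 with lower values in *mthf-1(ww50)*, where 156 (1.09%) and 197 (1.37%) of all genes were. The C-type lectin gene *clec-47* was at 247 and 244 TPM in *mthf-1(ww50)* and at 124 and 72.7 TPM in *metr-1(ww52)*, against 0.30 and 0.21 TPM in the parent. Other members lay below the parent in both mutants. Mean TPM of *dod-21* was 6.77 in *mthf-1(ww50)*, 3.68 in *metr-1(ww52)* and 447 in the parent. For *irg-5* the means were 3.62, 4.84 and 98.6 TPM in the same order. A second lectin gene, *clec-60*, was at 3.36 and 4.13 TPM in *mthf-1(ww50)* and at 1.05 and 0.69 TPM in *metr-1(ww52)*. The lysozyme gene *lys-6* was at 26.6 and 20.8 TPM in *mthf-1(ww50)* and at 13.3 and 12.47 TPM in *metr-1(ww52)*. The 1 gene past the mark with lower values was *lys-7*, another lysozyme gene. It was at 239 and 212 TPM in *mthf-1(ww50)* and at 554 and 398 TPM in *metr-1(ww52)*, a difference of -1.06 (limma adjusted p = 0.154). The other listed genes with negative differences were *irg-5* (-0.33), *dod-24* (-0.25) and *lys-1* (-0.16). Over the whole lectin family of 92 tested genes the median was -0.04, with 6 genes at an unadjusted p under 0.05 in each direction. The lysozyme genes *lys-10* and *ilys-2*, described above, are outside the list and were lower in *mthf-1(ww50)*, with differences of -3.33 and -2.53. The list was partly drawn from genes known to vary in these strains, so its lean is not independent evidence.

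Of 17 genes of fatty acid synthesis and desaturation none was called, and their median difference was 0.07. The elongase gene *elo-5*, which makes branched-chain fatty acids, was at 224 and 249 TPM in *mthf-1(ww50)* and at 122 and 121 TPM in *metr-1(ww52)*, a difference of 0.95 with an interval of 0.47 to 1.43 before adjustment (adjusted p = 0.555). Its partner in that pathway, *elo-6*, was at 283 and 221 TPM in *mthf-1(ww50)* and at 164 and 155 TPM in *metr-1(ww52)*. The parent had 258 and 171 TPM of *elo-5* and 338 and 193 TPM of *elo-6*, so *metr-1(ww52)* is the lower strain for both. The delta-9 desaturase genes lay the other way or mixed, *fat-6* at 467 and 388 TPM in *mthf-1(ww50)* and at 577 and 517 TPM in *metr-1(ww52)*, and *fat-7* at 47.8 and 77.0 TPM in *mthf-1(ww50)* and at 32.4 and 48.8 TPM in *metr-1(ww52)*. Phosphatidylcholine synthesis consumes SAM in the worm through *pmt-1* and *pmt-2*, and no gene of its 10 tested was called (median 0.11). The lipase gene *lipl-2* was at 3.88 and 2.88 TPM in *mthf-1(ww50)* and at 12.6 and 16.7 TPM in *metr-1(ww52)*, whereas *lipl-3* was at 7.99 and 7.53 TPM in *mthf-1(ww50)* and at 3.19 and 4.11 TPM in *metr-1(ww52)*.

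Other lists gave no call in either direction. These were transsulfuration and cysteine metabolism (18 tested, median 0.02), methionine sulfoxide reduction (5 tested, 0.01), SAM-dependent methyltransferases (26 tested, 0.02), the unfolded protein and heat shock response (21 tested, 0.04) and oxidative stress (11 tested, 0.05). None of these genes reached an unadjusted p of 0.05. The methionine sulfoxide reductase gene *msra-1* was at 1944 and 1531 TPM in *mthf-1(ww50)* and at 1381 and 1097 TPM in *metr-1(ww52)*, against 81.3 and 53.9 TPM in the parent. Cytochrome P450 genes (41 tested), glutathione transferases (34 tested), UDP-glucuronosyltransferases (46 tested) and nuclear hormone receptors (152 tested) had medians between -0.07 and 0.09.

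Histone genes formed the broadest uncalled group, noticed after the values were seen. Of 57 tested, 34 had lower and 0 had higher values in *mthf-1(ww50)* at an unadjusted p under 0.05, where 1.37% and 1.09% of all genes did, and the median difference was -0.86. Summed over all 72 histone genes, the level was 1715 and 1434 TPM in *mthf-1(ww50)* and 2465 and 1953 TPM in *metr-1(ww52)*, without overlap. The parent had 1210 and 1098 TPM, below every mutant library. The sum was 1870 and 1759 TPM in *sams-1(ww51)* and 1759 and 1705 TPM in *mtrr-1(ww56)*. The gene with the smallest adjusted p, *his-37*, was at 54.1 and 44.5 TPM in *mthf-1(ww50)* and at 107 and 96.1 TPM in *metr-1(ww52)* (adjusted p = 0.0642). Many copies are near-identical, and the 57 genes hold only 46 distinct sets of values, so reads cannot be placed on single copies. Transcripts of most histone genes lack a poly(A) tail, and RNA selection in these libraries was not tested. A further 2 of the 5 stretches, on chromosomes II and V, are clusters of histone genes, with 8 of 13 and 12 of 15 members. The last 2 stretches, both on chromosome V, were the pud gene cluster, whose 6 tested genes had a median difference of -1.22, and 10 genes from *nlp-28* to *phat-3*, with a median of 0.56. The cluster member *pud-1.1* was at 329 and 159 TPM in *mthf-1(ww50)* and at 464 and 514 TPM in *metr-1(ww52)*, and no gene of either stretch was called.

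Markers of adult onset, molting and oocytes differed more between replicates than between strains. Yolk and adult-onset genes summed to 332 and 4455 TPM in *mthf-1(ww50)* and to 197 and 2884 TPM in *metr-1(ww52)*, so replicate 2 is the high one in both. Molting and cuticle genes ran the other way, at 6249 and 2924 TPM in *mthf-1(ww50)* and at 7491 and 3227 TPM in *metr-1(ww52)*. Oocyte and eggshell markers summed to 488 and 1276 TPM in *mthf-1(ww50)* and to 490 and 1039 TPM in *metr-1(ww52)*. All 3 sums overlap between the strains, and no gene of these lists was called. Within each replicate number the yolk sum was the higher in *mthf-1(ww50)* and the molting sum the lower. The 8 yolk and adult-onset genes had a median difference of 0.59, with 7 positive. In fits without 1 library that median ran from -1.29 to 2.65. The 26 molting and cuticle genes had a median difference of 0.16, with 15 positive, and a range of -0.64 to 0.55 in those fits. Intestine markers summed to 4234 and 4210 TPM in *mthf-1(ww50)* and to 4329 and 4527 TPM in *metr-1(ww52)*, without overlap. Marker genes of intestine, hypodermis, muscle, neurons, germline, oocytes and sperm had median differences of -0.13 to 0.11, and no embryo marker passed the filter on low values. In whole animals, fewer cells of a type and less RNA per cell cannot be told apart, and the part of stage in the results was not tested.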

How the data were processed

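The authors deposited TPM values for all genes of the 10 libraries in 1 table, made with bowtie2 alignment of 100 bp paired reads to WormBase WS271 and RSEM. The submitters' notes also name DESeq2 and R 3.6.3. RNA selection and strand setting are not given in the sources used here, and TPM keeps no sequencing depth, so no counting error is stated. Symbols were matched for 44018 of 46903 identifiers. Coordinates come from the WBcel235 annotation, which was not compared base by base with WS271.

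Log2(TPM + 1) was fitted with limma 3.58.1 in R 4.3.3 for the 14353 genes averaging 1 TPM or more in the 4 libraries, with 5 strain means, a mean-variance trend and Benjamini-Hochberg adjusted p-values. The pseudocount understates the change of low genes. For 2 against 2 libraries the smallest exact two-sided permutation p is 0.333, so the spread was shared over 10 libraries, which the labels call biological duplicates. Replicates are numbered 1 and 2. Replicate differences correlated between strains at 0.170 to 0.755 in all 10 pairs, so the numbers were taken to pair the libraries. The main fit still has no term for the replicate number, so replicate spread stays in the error behind its calls, SEs and intervals. With the replicate block the SE of the *mthf-1* difference was 0.12 against 0.30, and that of *elo-5* 0.208 against 0.203. The alternatives were other pseudocounts, filters, scalings, a replicate block and each library left out. The fit was tested on simulated data.

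Named genes are the strains' own genes, every called gene and, to 15 per direction, the largest non-overlapping differences at a mean of 5 TPM, of which the better characterised are described. List members, *acr-17*, H28G03.5 and stretch genes were named after their values were seen. The comparison and gene lists were chosen with earlier results of these data known. Tables and figures used Python 3.11.15, numpy 2.4.6, pandas 2.3.3 and matplotlib 3.10.9.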

Additional observations from a re-analysis of the deposited data

How the results depend on the processing

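There were 3 calls higher and 2 lower in *mthf-1(ww50)*, and their number depends on the fit. Those of *zer-1*, R13A1.14 and *nuo-1* sit near the cutoff, with limma adjusted p from 0.00832 to 0.00902. Those of *anr-19* and C18D4.6 lie further below it, both with a limma adjusted p of 0.000432. A pseudocount of 0.1 gave 5 higher and 5 lower, a pseudocount of 5 gave 5 lower, no filter gave 4 lower and quantile normalization gave 5 lower. Without the mean-variance trend 1 was lower. Limma gave 0 calls in both directions at a filter of 5 TPM (95 higher and 139 lower at an unadjusted p under 0.05) and with the 4 libraries alone (218 and 212). It gave 0 lower with median-ratio scaling (190 at an unadjusted p under 0.05) and in the test against a 1.5-fold change (57 at that test's unadjusted p). At an adjusted p under 0.05, 13 were lower. Without the genes of the stretches on chromosomes II and V, an alternative chosen after seeing the data, 1 was higher and 0 lower.

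The replicate block gave 8 lower, and 21 higher and 21 lower with the 4 libraries alone. Apart from the 6 added calls, the block over 10 libraries changed no other call.

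With each library left out in turn, the counts ranged from 2 to 20 higher and from 0 to 18 lower, a lone library being assumed to vary like the other strains. The higher count was 15 without *mthf-1(ww50)* replicate 1 and 20 without replicate 2. The lower count was 18 without *metr-1(ww52)* replicate 1, 17 without replicate 2, and 0 without any 1 library of the parent, *sams-1(ww51)* or *mtrr-1(ww56)*. Calls of *anr-19* and C18D4.6 held in each of these fits. The sign of *sams-4* turned without *mthf-1(ww50)* replicate 1 (-0.0039, range to 0.37). The causes were not tested. Genes with differences near 0, such as *mthf-1*, *metr-1*, *sams-1* and *pacs-1*, also lay on either side of 0 in fits without 1 library, and no direction is given for them.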
